A study of Mus musculus with 2 samples.

Results

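The miR-29 family of mouse consists of 4 microRNA genes, Mir29a, Mir29b-1, Mir29b-2 and Mir29c, chosen by gene symbol from the 2202 microRNA genes of the deposited tables and not by any measured value. They lie in 2 pairs, Mir29a with Mir29b-1 on chromosome 6 and Mir29b-2 with Mir29c on chromosome 1. Short RNAs were sequenced from the left cerebral cortex of male B6CASTF1/J mice, a cross of the C57BL/6 and CAST/Ei strains, aged 14 days and untreated as far as the labels say. There was 1 group of 2 replicate libraries, and no second age, treatment or genotype. The labels number the libraries as biological replicates 1 and 2. They also give both the same donor and describe each tissue record with the words "3x Males", and whether a library is 1 animal or a pool is not stated. SDs and tests cover only the spread between the pair of libraries, part of which may be technical. All 4 genes had at least 10 counts in each library, the minimum used here to call a gene detected.

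A microRNA is cut from a hairpin-shaped precursor, and the mature strand from either the 5' or the 3' arm (written 5p and 3p) guides a silencing complex to messenger RNAs. Pairing rests mainly on the seed, bases 2 to 8 of the mature strand. The miR-29 family is known in brain for its rise after birth as neurons mature, and for targeting pro-apoptotic BH3-only genes and genes of DNA methylation and demethylation. In many other tissues it is known for repressing collagens and other extracellular matrix genes. With a single age sampled, no change with age could be measured in these libraries.

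The mature sequences show what unites the family and what the counts can separate. The 3p forms are given with the seed in capitals, from RefSeq annotation of GRCm38.p6, in which all 4 genes were matched.
miR-29a-3p: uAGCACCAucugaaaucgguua
miR-29b-3p: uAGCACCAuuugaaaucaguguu
miR-29c-3p: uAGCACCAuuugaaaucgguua
These 3 were the only forms with the seed AGCACCA among the mature mouse forms of that table, which has 1738 entries under 1679 distinct names. Counting positions from 1 at the 5' end, miR-29a-3p and miR-29c-3p differ by C10U alone, and miR-29c-3p and miR-29b-3p share their first 17 bases and differ by G18A, U21G and A22U. The last 6 bases of miR-29b-3p, AGUGUU, are known from cell lines as an element that directs this microRNA to the nucleus. Of the 1679 distinct forms, 2 (0.119%) end in these letters, miR-29b-3p and miR-92b-5p.

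The opposite arms share no seed with the 3p forms and differ between all 4 genes, and they are shown because they are what tells the 29b genes apart.
miR-29a-5p: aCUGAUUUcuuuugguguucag
miR-29c-5p: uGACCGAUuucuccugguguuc
miR-29b-1-5p: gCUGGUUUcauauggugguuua
miR-29b-2-5p: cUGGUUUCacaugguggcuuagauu
The full hairpins are given with both annotated arms in capitals, to show where the arms lie.
Mir29a: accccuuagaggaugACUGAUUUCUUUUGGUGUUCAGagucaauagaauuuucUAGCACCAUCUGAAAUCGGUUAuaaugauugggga
Mir29b-1: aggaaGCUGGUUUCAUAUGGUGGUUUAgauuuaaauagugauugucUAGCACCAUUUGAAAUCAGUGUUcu
Mir29c: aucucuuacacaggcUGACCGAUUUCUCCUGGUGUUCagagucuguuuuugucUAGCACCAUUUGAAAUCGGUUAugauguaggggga
Mir29b-2: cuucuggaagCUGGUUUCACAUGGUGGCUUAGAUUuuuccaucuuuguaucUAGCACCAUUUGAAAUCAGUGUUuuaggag

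Each hairpin resembled its counterpart on the other chromosome more than its neighbour. Mir29a and Mir29c were identical over 78.0% of aligned positions and Mir29b-1 and Mir29b-2 over 73.2%, against 60.4% for the chromosome 6 neighbours and 62.8% for the chromosome 1 neighbours. Folding energies computed with RNAfold were -34.1 kcal/mol for Mir29a, -34.8 for Mir29c, -26.3 for Mir29b-1 and -31.1 for Mir29b-2, beside a median of -33.2 over the 2202 hairpins.

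On chromosome 6 (mm10, minus strand) Mir29a (ENSMUSG00000065610.1) spans 31062660 to 31062747 and Mir29b-1 (ENSMUSG00000065604.2) spans 31063023 to 31063093, with 275 bases between them. Mir29b-1 overlaps by 2 bases an exon of the long non-coding RNA gene Gm27019 on the same strand, and Mir29a overlaps no other annotated gene. The nearest protein-coding gene, Klf14, lies 103582 bases away. On chromosome 1 (plus strand) Mir29b-2 (ENSMUSG00000065412.3) spans 195037040 to 195037120 and Mir29c (ENSMUSG00000065548.1) spans 195037547 to 195037634, with 426 bases between them. Both lie wholly in an exon of 1 of the 4 annotated transcripts of the non-coding host gene A330023F24Rik. On the opposite strand both also lie in an untranslated region of 1 of the 4 transcripts of Cd46, which encodes a complement regulator. No reads were counted on the opposite strand at any of the 4 microRNA genes, in either library.

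The mature form miR-29b-3p is encoded identically by Mir29b-1 and Mir29b-2. Reads that matched several positions in the genome were not given to any gene in the deposited tables, so an exact copy of miR-29b-3p could be counted at neither gene. All 6 of the 18-base windows within that arm were shared with another microRNA hairpin, while none of the windows within the other arms of the 4 genes was, the 5p arms of both 29b genes included. The counts of Mir29b-1 and Mir29b-2 therefore set no limit on the level of miR-29b-3p, and the deposited counts do not separate the arms. The miR-29c-3p arm shared no 18-base window lying within it, but 5 windows of the Mir29c hairpin that start before that arm were shared with a 29b hairpin. Mir29a shared none of its 71 windows. Among GENCODE M21 transcripts the exact miR-29a-3p form was found in Mir29a alone, and miR-29c-3p in Mir29c and its host gene A330023F24Rik alone.

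**Figure D1:**
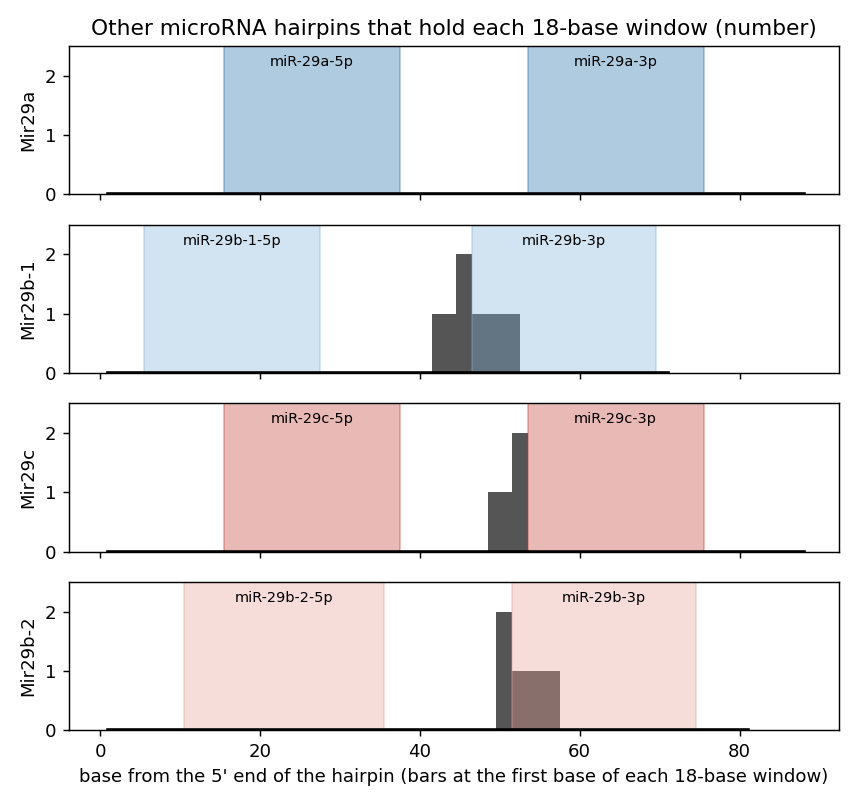
For each of the 4 hairpins, the bars give the number of other, non-overlapping microRNA hairpins that hold the 18-base window starting at that base, along the base position from the 5' end. Shaded spans are the annotated arms; all 6 windows that start and end inside miR-29b-3p are shared, and no window inside miR-29a-3p, miR-29c-3p or a 5p arm is.

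Library size and the shares of the cell type lists were as follows. The files held 11224232 and 8758378 reads, of which 4111167 and 3189903 were counted in microRNA genes; CPM below are counts per 1000000 of the latter. At this depth 1 count was worth 0.243 CPM in replicate 1 and 0.313 CPM in replicate 2. Reads that matched several positions made up 39.1% and 41.4% of the reads. The list of neuron-associated microRNAs took 14.7% ± 0.790 (SD, n = 2) of these counts, led by Mir139 at a mean of 92324 CPM. Of its 19 genes 15 were detected, and 11 have a mature form repeated in another hairpin, whose reads may be uncounted. The list of endothelial cells and pericytes took 1.70% ± 0.203, that of microglia and leukocytes 0.889% ± 0.163 and that of oligodendrocytes 0.270% ± 0.0235. Mir342 led the microglia and leukocyte list at a mean of 6903 CPM, followed by Mir146 at 986 CPM. A few genes can carry a list, so these shares are not proportions of cells. A list of liver, muscle, epithelial and erythroid microRNAs held 0.0306% ± 0.00426. Of its muscle members, Mir206 had 85 and 76 counts, and Mir1a-1, Mir1a-2, Mir133a-1 and Mir133a-2 had no count in either library. In this list 4 of the 9 genes share an 18-base window with another microRNA hairpin. Reads of such shared sequence may have gone uncounted, so a lack of counts does not show absence. Astrocytes are known to express miR-29 strongly, and a list of 9 other astrocyte-associated microRNAs held 2.98% ± 0.168, led by Mir23b and Mir23a; the list shares Mir143 with the endothelial and pericyte list. In the test between libraries described with the members, 7 of the 9 astrocyte genes, 2 of the 3 endothelial and pericyte genes, 2 of the 6 microglia and leukocyte genes, 7 of the 15 detected neuron genes and none of the 3 oligodendrocyte genes were higher in replicate 2, the library in which Mir29c was higher, beside 23.4% of all detected genes. Lower in replicate 2 were 1 astrocyte, 1 endothelial and pericyte, 1 microglia and leukocyte, 8 neuron and 2 oligodendrocyte genes, beside 34.7% of all detected genes. By library totals Mir29a, the most counted member, was lower in replicate 2, and the family share was 0.253% in each library. The part of these cell types in the values of Mir29c or Mir29a was not tested. In tissue libraries, fewer cells of a type and less RNA per cell cannot be told apart.

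Mir29a was by far the most counted member. It had 8887 counts in replicate 1 and 6306 in replicate 2, which are 2162 CPM (exact 95% interval 2117 to 2207) and 1977 CPM (1928 to 2026), or 2069 ± 131 CPM (SD, n = 2). This placed it at rank 73 of the 406 genes detected in both libraries. Both libraries were close, with replicate 1 above replicate 2.

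Mir29c was the next, and its 3p form, like miR-29b-3p, has uracil at position 10 where miR-29a-3p has cytosine (C10U). Mir29c had 1147 counts in replicate 1 and 1469 in replicate 2, or 279 CPM (263 to 296) and 461 CPM (437 to 485), with a mean of 370 ± 128 CPM at rank 154. Replicate 2 was the higher library, and the 2 counting intervals did not overlap.

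The 29b genes were low and close to each other. Mir29b-1 had 190 and 150 counts, 46.2 CPM (39.9 to 53.3) in replicate 1 and 47.0 CPM (39.8 to 55.2) in replicate 2, at rank 243. Mir29b-2 had 177 and 131 counts, 43.1 CPM (36.9 to 49.9) and 41.1 CPM (34.3 to 48.7), at rank 247. Their mean levels, 46.6 ± 0.571 and 42.1 ± 1.40 CPM, differed by 1.11 ± 0.0506 times (ratio of counts). Counting intervals of this ratio included 1 in both libraries, 0.870 to 1.32 in replicate 1 and 0.900 to 1.46 in replicate 2. No difference between the counted reads of the genes was therefore detectable at this depth. The order of the family was Mir29a, Mir29c, Mir29b-1, Mir29b-2 in each library, and only the last 2 neighbours in that order had overlapping counting intervals. Intervals cover counting error only, and the reads carry no molecular identifiers and may repeat molecules, so the intervals can be too narrow.

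**Figure D2:**
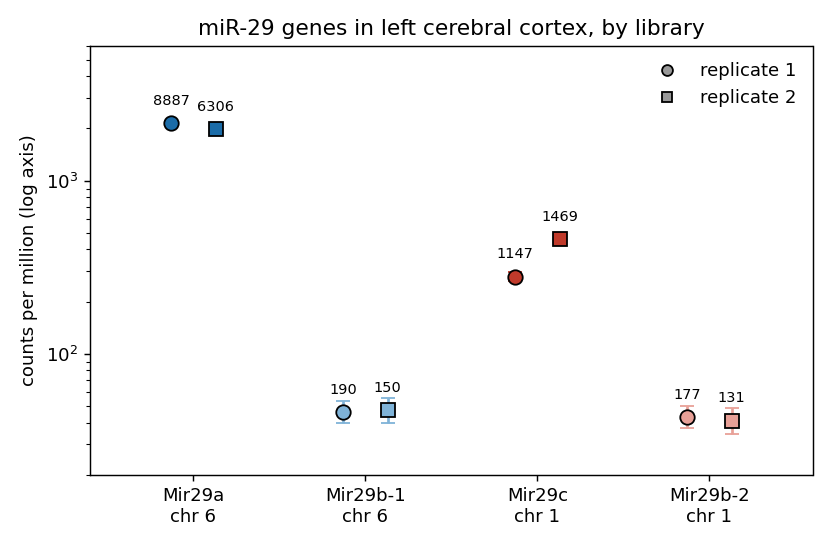
Counts per 1000000 (CPM, log axis) of the 4 miR-29 genes in replicate 1 (circles) and replicate 2 (squares), with exact 95% counting intervals and the raw count printed above each point. Mir29a lies at 2162 and 1977 CPM, Mir29c at 279 and 461 CPM, and both 29b genes between 41.1 and 47.0 CPM.

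Together the family held 10401 counts in replicate 1 and 8056 in replicate 2. This was 0.253% of the counts in each library (0.248 to 0.258% and 0.247 to 0.258%), so the family total was nearly the same share while its makeup was not. Mir29a supplied 85.4% of the family counts in replicate 1 and 78.3% in replicate 2, and Mir29c supplied 11.0% and 18.2%. Mir29b-1 supplied 1.83% and 1.86%, and Mir29b-2 1.70% and 1.63%. With Mir29a left out of the family and of the total, the share was 0.0459%.

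Genes of 1 pair can be cut from 1 primary transcript, and their counts were far from equal on both chromosomes. Mir29a had 46.8 times the counts of Mir29b-1 in replicate 1 (40.5 to 54.3) and 42.0 times in replicate 2 (35.8 to 49.8), a mean of 44.4 ± 3.35. Scaled per base of hairpin, since Mir29a has 88 bases and Mir29b-1 has 71, the mean ratio was 35.8. Mir29c had 6.48 times the counts of Mir29b-2 in replicate 1 (5.53 to 7.64) and 11.2 times in replicate 2 (9.37 to 13.5), a mean of 8.85 ± 3.35. In both pairs the gene whose main arm is repeated in the genome was the lower one; what part the uncounted reads of miR-29b-3p have in these ratios was not tested.

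In counted reads the chromosome 6 pair outweighed the chromosome 1 pair. Exact copies of miR-29b-3p, which both pairs encode, are in neither sum, so the whole output of the pairs is not compared. The ratio of their summed counts was 6.86 in replicate 1 (6.47 to 7.27) and 4.04 in replicate 2 (3.82 to 4.26), with a mean of 5.45 ± 1.99. Mir29a and Mir29c made up most of both sums, and their own ratio was 7.75 in replicate 1 (7.29 to 8.25) and 4.29 in replicate 2 (4.06 to 4.55). A ratio within a library does not depend on the library total, and the intervals of the 2 libraries did not overlap for either ratio. The ratio of the 29b genes, by contrast, had overlapping intervals.

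**Figure D3:**
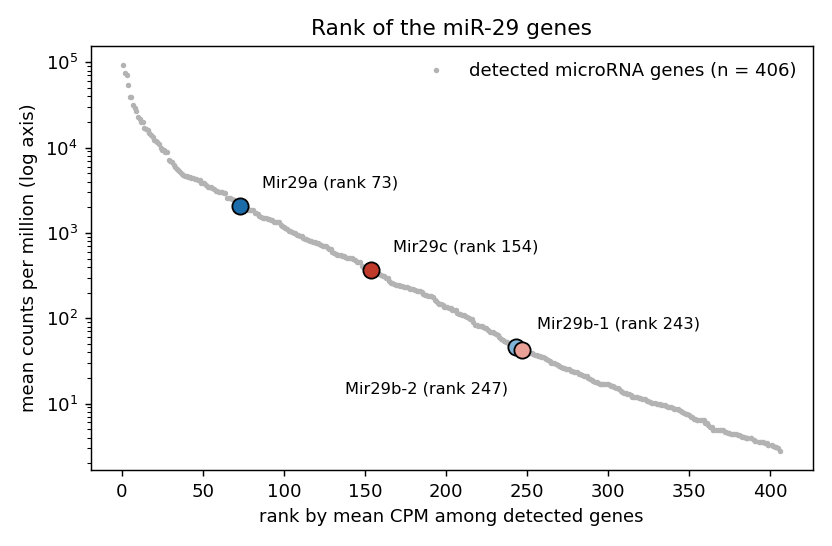
Mean CPM (log axis) of the 406 microRNA genes detected in both libraries against their rank, in grey, with the 4 miR-29 genes in colour. Mir29a stands at rank 73, Mir29c at 154, and Mir29b-1 and Mir29b-2 at 243 and 247.

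The genes nearest to each member in level are given for scale, measured by the distance in log2(CPM + 1) over the 2 libraries; with only 2 libraries this says little about a pattern. Next to Mir29a stood Mir598 (8413 and 6339 counts) and Mir17 of the proliferation-associated miR-17-92 cluster (8402 and 6353 counts). Next to Mir29c stood Mir34c (1014 and 1349 counts), of the p53-responsive miR-34 family, and Mir129-1 (1177 and 1173 counts). Mir24-2 (196 and 154 counts) and Mir103-2 (190 and 160 counts) were nearest to Mir29b-1, which like Mir129-1 share an 18-base window with another microRNA gene. Mir6236 (187 and 126 counts) and Mir679 (193 and 128 counts) were nearest to Mir29b-2.

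Between the libraries, Mir29c differed most of the members and the 29b genes did not pass the test. For each of the 406 detected genes, an exact two-sided binomial test asked whether its counts divided between the libraries as the totals do, and p-values were adjusted by the Benjamini-Hochberg method. This compares 2 libraries and no conditions, and 58.1% of all detected genes passed at 0.05, 23.4% higher and 34.7% lower in replicate 2. Of the 4 members 2 passed, 1 in each direction. Mir29c was 1.65-fold higher in replicate 2, a log2 ratio of 0.72 (0.61 to 0.84; adjusted p = 1.16e-36, exact binomial test). Mir29a was lower in replicate 2 by a log2 ratio of -0.13 (-0.18 to -0.082; adjusted p = 1.50e-07, exact binomial test).

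Mir29b-1 had a log2 ratio of 0.025 (-0.29 to 0.34; adjusted p = 0.927, exact binomial test) and Mir29b-2 one of -0.068 (-0.41 to 0.27; adjusted p = 0.768, exact binomial test). By absolute log2 ratio Mir29c ranked 81 of 406, Mir29a 307, Mir29b-2 361 and Mir29b-1 392, where rank 1 is the gene that differed most. The median absolute log2 ratio over all detected genes was 0.30, so Mir29c lay above it and the other 3 members below it. Library sizes scaled with TMM factors move every log2 ratio by 0.079. The call for Mir29a was lost with them (log2 ratio -0.050; adjusted p = 0.0648, exact binomial test) and that for Mir29c was kept (0.80; adjusted p = 7.52e-45, exact binomial test), while 54.4% of detected genes passed (27.3% higher, 27.1% lower). With DESeq2 size factors 54.2% passed (27.6% higher, 26.6% lower) and again Mir29c alone of the members. With either TMM or DESeq2 scaling the sign of the log2 ratio of Mir29b-2 turned, at a size near 0. The biological coefficient of variation of all detected genes, from edgeR, was 0.307. The exact binomial test allows for counting error alone and not for this spread.

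**Figure D4:**
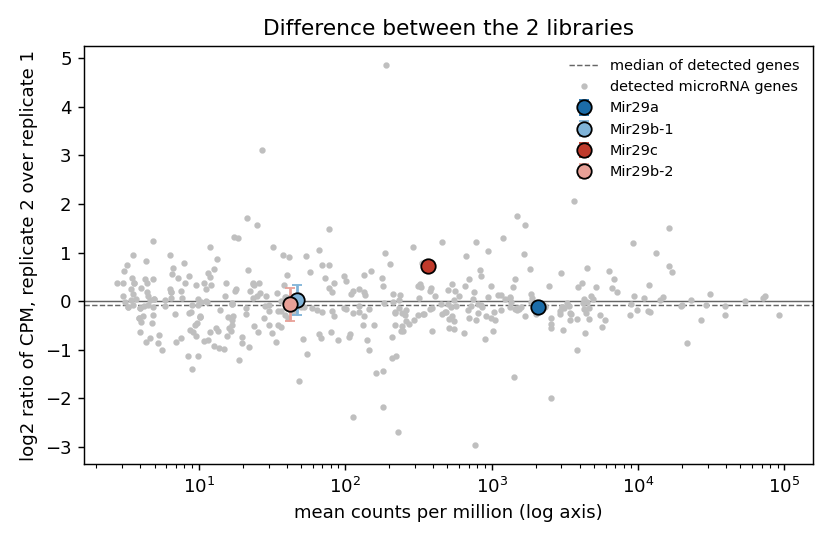
Log2 ratio of CPM, replicate 2 over replicate 1, against mean CPM (log axis) for the 406 detected genes (grey) and the 4 miR-29 genes (colour, with exact 95% counting intervals). Mir29c lies at 0.72, and the other 3 members lie between -0.13 and 0.025; the dashed line is the median of all detected genes, -0.083.

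Other families with several genes on separate chromosomes are given side by side with miR-29; the differences between families were not tested. The miR-29 share of 0.253% compares with 1.77% ± 0.413 (SD, n = 2) for the 6 genes of miR-30, 1.25% ± 0.00635 for the 6 of miR-181 and 0.484% ± 0.00501 for the 3 of miR-26. Reads that matched several positions are in none of these shares, and how much of each family they would add is not known. In miR-26 the genes whose mature form is repeated were the lowest, as in miR-29. Mir26a-1 had 9 and 32 counts, under the minimum for detection in replicate 1, and Mir26a-2 had 52 and 1175, beside 19976 and 14114 for Mir26b, whose forms are not repeated. In miR-30, Mir30c-1 (548 and 365 counts) and Mir30c-2 (823 and 707 counts) share a form and were below Mir30a (14839 and 14943 counts) and Mir30e (20958 and 8066 counts), which share none; Mir30b (434 and 388 counts), the lowest of the family by mean level, and Mir30d (23201 and 41352 counts) were not matched in the sequence table. The miR-181 family followed that order only in part. Mir181b-2, one of 4 genes there with a repeated form, had 17270 and 13882 counts. This was about as many as Mir181d, with no repeated form, at 17448 and 13121. Lower were the others with a repeated form, Mir181a-1 (2679 and 3224 counts), Mir181b-1 (157 and 129) and Mir181a-2 (41 and 104). Mir181c, with no repeated form, had 13529 and 9494 counts. Over all genes with a mature form in the table, 45 of 110 with a repeated form and 322 of 908 without one were detected, with median levels of 124 and 144 CPM among those detected.

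Other microRNAs known for targets in the same pathways were described from lists. Of 12 genes known to target genes of the DNA methylation pathways, 11 were detected, and together they held 4.06% ± 1.16 of the counts (SD, n = 2). The list shares Mir143 with the cell type lists, and Mir132 and Mir212 with the neuron list. It also includes the 3 genes of miR-26. It was led by Mir132, which neuronal activity induces, at 12230 and 20125 CPM, and Mir22, which represses Tet genes, at 8889 and 17616 CPM. By the exact test, 5 of the 11 passed as higher in replicate 2, 4 passed as lower and the remaining 2 did not pass, beside 23.4% higher and 34.7% lower over all detected genes. The median log2 ratio of the list was 0.059, beside -0.083 over all detected genes. Of 20 genes known to target BH3-only genes, 18 were found by symbol. Mir18a and Mir92a-1 stand in the tables as Mir18 (620 and 812 counts) and Mir92-1 (2124 and 1592 counts) and are not part of the sums given here. Of these 18, 16 were detected and held 2.27% ± 0.145 of the counts, led by Mir181b-2 and Mir181d. The list includes the 6 genes of miR-181, and it shares Mir24-1 and Mir24-2 with the astrocyte list. In the exact test 7 passed as lower in replicate 2, 4 as higher and 5 in neither direction, beside the same shares over all detected genes, and the median log2 ratio was -0.062.

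No messenger RNA was measured in these libraries, so genes listed from classes known for miR-29 targets are described by sequence alone. The longest 3' untranslated region (UTR) of each gene in GENCODE M21 was searched on the transcript strand for TGGTGCT, the complement of the shared seed, and for TGGTGCTA, the same letters followed by A. The shorter match contains no other motif, and each longer match is also counted as a shorter one. Of 21022 genes with an annotated 3' UTR, 13.1% held the shorter match and 2.85% the longer. Of the 28 listed genes, 20 held the shorter match and 15 the longer. The lists are gene classes chosen because they include known miR-29 targets, so the counts are no independent evidence. Being listed does not make a gene a known target. A match is a description of the sequence and not a shown site of binding.

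Of the 8 BH3-only genes, which start apoptosis by binding BCL2-like proteins, 4 held the shorter match: Hrk with 3, Bbc3 (encoding PUMA) with 2, and Bcl2l11 (encoding BIM) and Bmf with 1 each. Bad, Bid, Bik and Pmaip1 held none in this window. Matches of these 4 genes are shown with 8 bases on either side and the match in capitals, 1 per gene and the adjacent pair of Hrk, read on the transcript strand.
Bmf, chr2:118531349-118531371, minus strand: aaagacatTGGTGCTataatgaa
Hrk, chr5:118185071-118185093, plus strand: agtgtgtcTGGTGCTtcacttca
Hrk, chr5:118185094-118185116, plus strand: cagtttctTGGTGCTaagtgtat
Bbc3, chr7:16317627-16317649, plus strand: caggccccTGGTGCTtccccccc
Bcl2l11, chr2:128158405-128158427, plus strand: ccctctctTGGTGCTgcgacagt
The matches of Bmf and the latter one of Hrk are followed by A. The 3' UTR of Bbc3 has 971 bases, and of the 1348 genes within 10% of that length 10.01% held the shorter match. For Hrk, with 5068 bases, 44.0% of the genes of like length did, and for Bcl2l11, with 4218 bases, 37.5%.

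Of the 8 DNA methylation and demethylation genes, 6 held the shorter match, 29 times in all. Tet3, Tet1 and Tet2, the dioxygenases that oxidize methylcytosine, held 8, 7 and 5. Dnmt3a, the de novo methyltransferase that writes methylation in maturing neurons, held 5, and Tdg, the glycosylase that removes oxidized methylcytosine, held 3. Dnmt3b held 1, and Dnmt1 and Uhrf1, which act in maintenance of methylation, held none. Among all 21022 genes none held more than the 8 of Tet3, a number also found in Igsf9b. The 3' UTR of Tet3 has 5669 bases, and 40.1% of 352 genes of like length held at least 1 match. The like-length share was 48.3% for Tet1, 47.7% for Dnmt3a, 26.7% for Tet2, 19.1% for Tdg and 13.2% for Dnmt3b. The median 3' UTR of this list had 2568.5 bases, beside 960 over all genes. The longer matches of Dnmt3a and Tet3 and that of Tdg are shown, with the shorter match in capitals.
Dnmt3a, chr12:3911397-3911419, plus strand: gaggtagcTGGTGCTagcaccag
Dnmt3a, chr12:3911466-3911488, plus strand: tcccaagcTGGTGCTaattcctc
Tet3, chr6:83364329-83364351, minus strand: ctaataaaTGGTGCTatggtgtt
Tet3, chr6:83363770-83363792, minus strand: cttttagtTGGTGCTaaacttct
Tdg, chr10:82649669-82649691, plus strand: attttccaTGGTGCTacagacag
Each of these 5 matches carries the complement of the seed that all 3 miR-29 3p forms share, so the letters do not tell which member would pair there.

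Of the 12 extracellular matrix genes, 10 held the shorter match, led by the collagen gene Col5a1 with 4 and the elastin gene Eln with 3. Col4a2 and Fbn1 held 2 each, and Col1a1, Col3a1, Col4a1, Col5a2, Lamc1 and Mmp2 held 1 each. Col1a2 and Sparc held none in this window. Per kilobase of 3' UTR there were 1.03 matches in this list, 1.03 in the DNA methylation list and 0.366 in the BH3-only list, beside 0.106 over all genes.

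**Figure D5:**
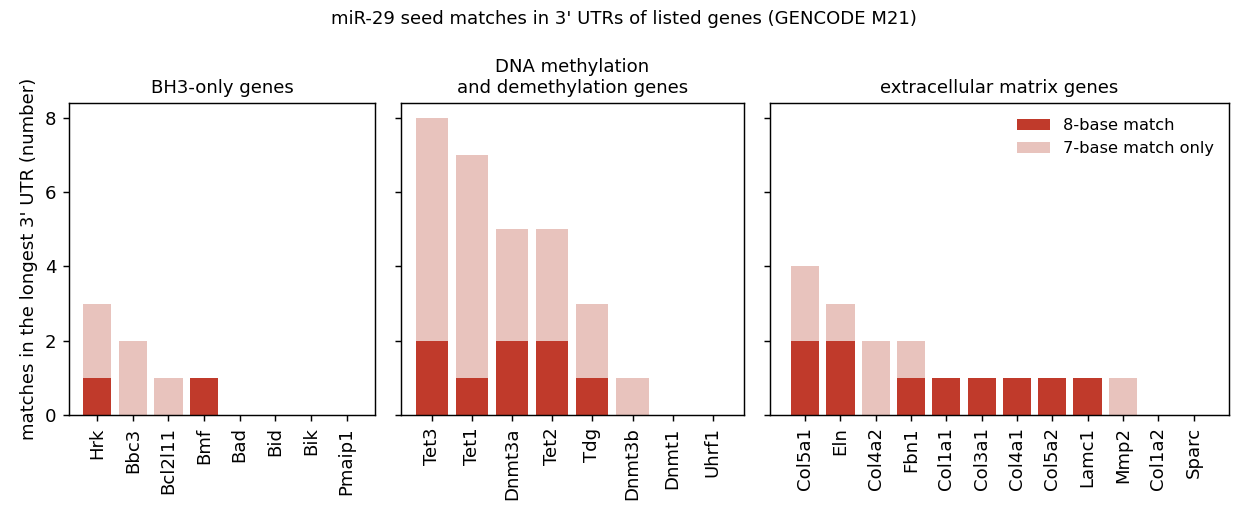
Number of seed matches in the longest annotated 3' UTR of each listed gene, by list; the dark part of a bar counts matches followed by A and the light part the other 7-base matches. Tet3 has 8 matches, Tet1 has 7, and 8 of the 28 listed genes have none.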

How the data were processed

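Per the files deposited by the authors, the values are raw read counts per microRNA gene, with 3 count columns (strand ignored, strand of the gene, opposite strand) after 4 rows of unassigned reads. The deposited descriptions name mm10 and GENCODE M21; the aligner and the counter were not given in the sources used here, and the column meanings are those of the STAR layout. All 2202 IDs matched GENCODE M21. Reads at several positions, unmapped (19.1% and 17.5%) or in no gene (5.13% and 4.66%) stayed out of the totals. The column for the gene's own strand was taken.

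CPM, exact Clopper-Pearson 95% intervals, ratios and exact binomial tests were computed with SciPy 1.17.1, and TMM factors and dispersion with edgeR 4.0.16 and size factors with DESeq2 1.42.0, from genes with at least 10 counts in each library. Hairpins were folded with RNAfold 2.7.2. Replicates differed beyond sampling noise (chi-square 160191 on 405 degrees of freedom) and were kept as 2. An exact two-sided sign-flip test over 2 libraries cannot go below p = 0.5, so no test over samples is given.

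Genes planned for naming were the members, the 2 genes nearest each in level, and the 2 most abundant and up to 2 uncounted members of each list. The most abundant members of several lists are not named above. Further genes of the compared families and of the liver, muscle, epithelial and erythroid list were named after their values were seen. The members and lists were chosen with earlier results of these data known. Of the target genes listed, 1 is not reported here and was left out of all counts. Alternatives were strand ignored, other library sizes, count minimums of 1 and 50, adjusted p under 0.01, counts per hairpin base, and leaving out genes or a replicate.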

Additional observations from a re-analysis of the deposited data

Results flagged for a closer look

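Outside the counts used for the miR-29 genes stood the reads that matched several genomic positions, 39.1% of all reads in replicate 1 and 41.4% in replicate 2. They stand apart because they belong to no gene in the tables, and there are no control samples to set them against. How many of these reads are copies of miR-29b-3p was not analysed here.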

How the results depend on the processing

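Of 95 values under alternatives, 22 leave out a replicate, and with 2 libraries these cannot move a mean by more than its SD. Of the other 73, 54 kept their call, or moved by no more than 1 SD (values) or 1.5 times (counts), and 19 did not. Ignoring strand left the members' counts as they were and lowered the total, which gave a family share of 0.271% and levels of 2222 CPM for Mir29a, 50.1 for Mir29b-1 and 45.2 for Mir29b-2. With all reads as the total the share was 0.0923%, and the levels were 756, 17.0, 135 and 15.4 CPM for Mir29a, Mir29b-1, Mir29c and Mir29b-2. Without the most abundant gene the share was 0.279%, and without Mir29a 0.0459%. Per base of hairpin the ratio of Mir29a to Mir29b-1 was 35.8 and that of Mir29b-1 to Mir29b-2 1.27. These moves follow from how the alternatives are built. With TMM or DESeq2 scaling 1 member, Mir29c, passed the test between libraries; Mir29a then had log2 ratios of -0.050 and -0.046, and Mir29b-2 turned to 0.011 and 0.014. The ratios of Mir29a to Mir29c and of the 29b genes, and their alternatives, were chosen after seeing the data. The test between libraries and the coefficient of variation cannot be computed without either replicate. No paired analysis was possible because there is 1 group. Relative counting error was largest for the 29b genes, at 131 to 190 counts per library. Exact copies of miR-29b-3p could be counted at neither of them, whatever the depth.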
